A study of Mus musculus with 42 samples.

Results

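The comparison described here asks which testis transcripts an antibody against methylated adenosine recovered more or less efficiently from Pcif1 knockout (KO) mice than from Pcif1 heterozygous (HET) mice. It rests on 12 of the 42 libraries of the series, the testes m6Am-Exo-Seq libraries, in 4 groups of 3: input RNA from HET, input RNA from KO, immunoprecipitated RNA (IP) from HET and IP from KO. All came from adult mice, and genotype and adult age are all that the labels give for each animal. The mutant allele is an 89 bp Cas9 deletion across exon 15 and intron 16 of Pcif1, which takes out the catalytic NPPF residues and introduces an early stop codon. It was made in B6D2F1/J hybrid embryos, the founders were bred to C57BL/6J, and 1 mouse line was kept. HET animals carry the same allele in single copy, so the control is not wild type, and no wild-type testes entered this assay. The labels speak of biological triplicates for tissue RNA but do not number the animals behind these 12 libraries, so a p-value here reflects how much these particular samples varied. A value of a gene is its read count divided by a scaling factor for the library, called a scaled read count below. Enrichment is the mean of log2(scaled read count + 1) in the IP minus that in the input, and the genotype difference is enrichment in KO minus enrichment in HET.

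PCIF1 methylates the N6 position of an adenosine that is the first transcribed base next to the mRNA cap, which yields m6Am, and transcripts that begin with another base carry no m6Am. The antibody used for such precipitations also binds m6A, which METTL3 and METTL14 place at internal positions, so an IP signal can persist without PCIF1. In m6Am-Exo-Seq, an exonuclease first removes uncapped RNA fragments so that capped 5' ends are favoured before precipitation. The testis is a mixture of somatic cells and successive germ cell stages, and round and elongating spermatids express large sets of genes for the acrosome, the flagellum and sperm energy metabolism. In bulk tissue of this kind, fewer cells of a type and less RNA per cell cannot be told apart.

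Read totals per library ranged from 4151226 to 4971554 over the 6 inputs, from 2689591 to 6574479 over the HET IP libraries and from 1816831 to 4364847 over the KO IP libraries. The shallowest was KO IP replicate 2, in which 1 read is worth a scaled count of 2.20, so values below about 10 there rest on a few reads. The median within-group SD of log2 values was 0.187 in HET inputs and 0.200 in KO inputs, against 0.348 in HET IP and 0.354 in KO IP. Pcif1 itself was too low to test. Its scaled counts in the inputs were 5.53, 7.39 and 10.4 (HET) and 7.98, 6.75 and 1.64 (KO), and in the IP 1.49, 5.88 and 8.04 (HET) and 8.98, 0 and 6.31 (KO). These groups overlap, and because the deletion removes a small stretch of the gene, gene totals check no label.

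Of 12387 genes with a scaled count of at least 10 in at least 3 libraries, 774 (6.25%) had lower and 461 (3.72%) higher enrichment in KO than in HET at a Benjamini-Hochberg adjusted p below 0.05 in limma. The filter boundary lies among scarce transcripts. Exactly 3 libraries reached 10 for 461 genes, 8 of which were called, and exactly 2 did so for 543 genes that were left out. The called genes were not scarce ones: the median input level was 217 for genes lower in KO and 196 for genes higher in KO, against 48.9 for genes not called. Nearly all of the difference lay in the IP libraries. For the lower genes the median KO minus HET difference was -1.37 in the IP and -0.12 in the input, and the IP difference was the larger of both in 766 of 774 genes (99.0%). For the higher genes the medians were 1.06 in the IP and -0.02 in the input, and the IP difference was the larger in 443 of 461 (96.1%), against 76.4% of all tested genes. Because each library is scaled on its own, a loss of IP yield shared by all transcripts would not show, and the median genotype difference over all tested genes was -0.01.

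Most genes with lower enrichment in KO were not enriched in HET to begin with. Against their own inputs, 14.7% of tested genes were enriched and 15.4% depleted in the HET IP, and 21.2% and 24.3% in the KO IP, by the same test. Among the 774 lower genes, 201 were enriched in HET. Of these, 113 were neither enriched nor depleted in KO, 77 were depleted in KO and 11 were still enriched. A larger set of 473 was neither enriched nor depleted in HET, and 464 of them were depleted in KO. Another 100 were depleted in both genotypes. Among the 461 higher genes, 234 were neither in HET and enriched in KO, 88 were enriched in both, 102 were depleted in HET and neither in KO, 19 were depleted in both, and 11 went from depleted to enriched. These classes share their libraries with the genotype difference and are given as a description. The total of 1235 calls (9.97% of tested genes) fell without any 1 of the 6 input libraries, to 605, 662 and 640 without HET input replicates 1, 2 and 3 and to 814, 546 and 675 without KO input replicates 1, 2 and 3. Without HET IP replicate 1 the higher genes numbered 717. A core of 472 genes, 362 lower and 110 higher, kept call and direction without each of the 12 libraries and in edgeR's quasi-likelihood test on the recovered reads, and the genes described below by their values belong to it unless stated otherwise.

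**Figure D1:**
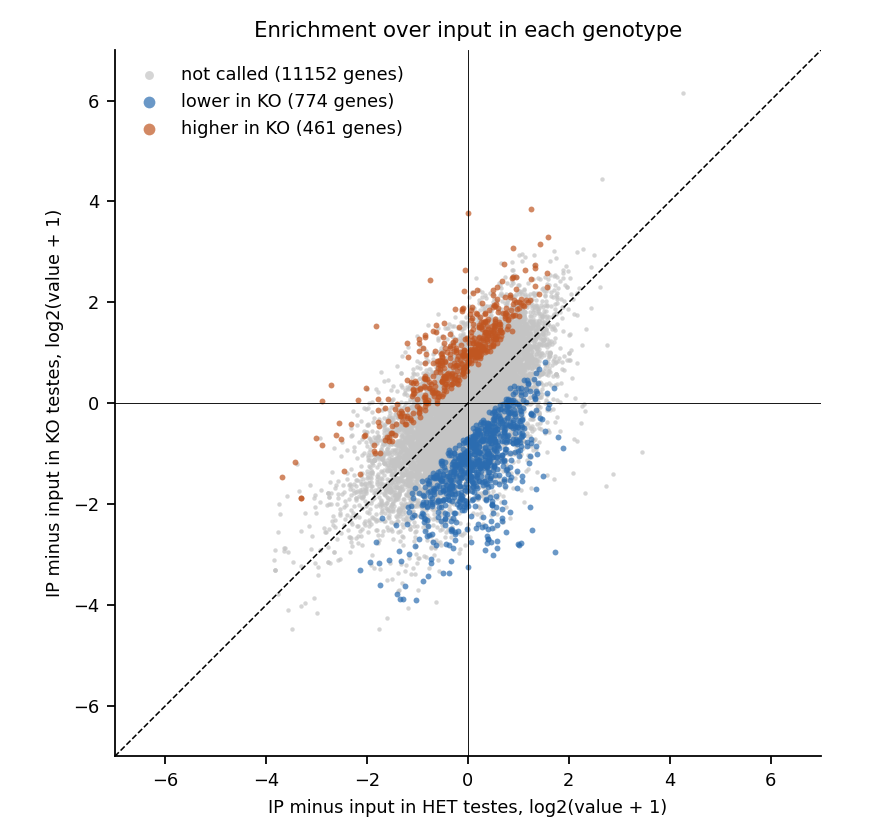
Each point is 1 of 12387 tested genes, with enrichment in the IP over input in HET testes on the x axis and in KO testes on the y axis, both as differences of log2(scaled read count + 1); the dashed line marks equal enrichment. The 774 genes lower in KO (blue) lie below the line on both sides of 0 on the x axis, and the 461 genes higher in KO (orange) lie above it.

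Since only an adenosine at the first transcribed position can become m6Am, the annotated first base was read for the 6966 tested genes that have a single start in the RefSeq promoter table for GRCm38.p6. An adenosine start was annotated for 29.3% of these genes, for 36.7% of the 474 genes lower in KO (95% Wilson interval 32.5 to 41.1%) and for 21.6% of the 264 genes higher in KO (17.1 to 26.9%). Among lower genes the share was 46.8% (52 of 111) where the transcript was enriched in HET, 35.5% where it was neither, and 25% where it was depleted in HET. A similar order held whatever the genotype call, with 38.3% of all 992 genes enriched in HET and 21.9% of all 1074 depleted in HET. A cytidine just before an adenosine start was found for 24.5% of lower and 14.0% of higher genes, against 19.4% of all. These are shares of all genes in each class, so they follow the adenosine shares and are no separate result. Seen from the other side, 8.52% of adenosine-start genes were lower and 2.79% higher in KO, and among guanosine-start genes 5.97% were lower and 4.53% higher. For cytidine-start genes these shares were 6.37% and 3.67%, and for thymidine-start genes 6.29% and 3.39%. The median genotype difference was -0.11 for adenosine-start, -0.08 for thymidine-start, -0.01 for cytidine-start and 0.02 for guanosine-start genes. Thymidine-start genes, which cannot carry m6Am, thus came close to adenosine-start genes in this median. The start regions also differed in base composition. GC content was taken over a 300-base window that begins 250 bases before the start, so most of it is not transcribed from that start. Its median was 58% for lower, 65.7% for higher and 60.7% for all tested genes. For lower genes enriched in HET it was 53.7%, and for all genes enriched in HET 57.3%. Below the median GC content the adenosine share was 42.1% of 299 lower, 26.9% of 67 higher and 34.9% of all tested genes. Above it the share was 27.4% of 175 lower, 19.8% of 197 higher and 23.5% of all. Within each range the median GC content still differed, at 53.7%, 55% and 54.3% below and 65%, 69.7% and 67.3% above, in the same order. The split thus does not level GC content, and the part of GC content in the adenosine shares was not tested. Wilson intervals cover counting error only, and an annotated start need not be the one used in testis.

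In each IP library, the median enrichment of adenosine-start genes was compared with that of all other genes against the mean input of the same genotype. The excess of adenosine-start genes was 0.19, 0.24 and 0.19 log2 units in the 3 HET IP libraries and 0.15, 0.05 and 0.05 in the 3 KO IP libraries. The groups do not overlap, KO IP replicate 1 lies closest to the HET libraries, and a small excess remained in every KO library.

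**Figure D2:**
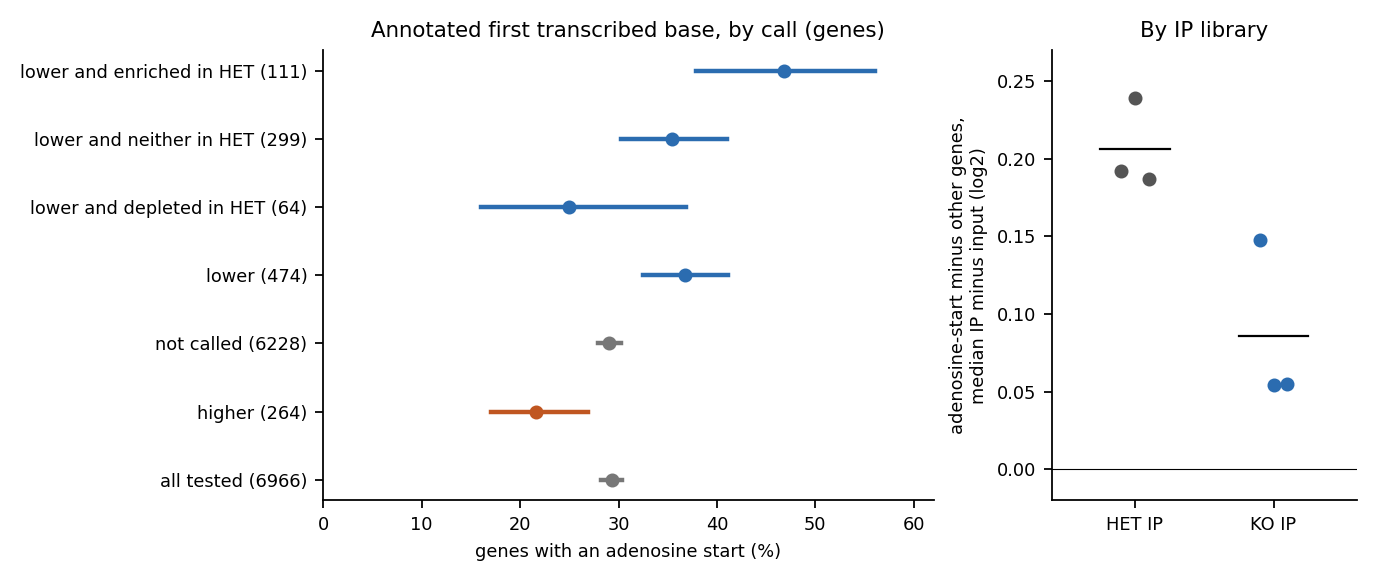
Left, share of genes with an annotated adenosine start (x axis, %) for classes of tested genes, with the number of genes in parentheses and bars for 95% Wilson intervals; right, median enrichment of adenosine-start genes minus that of all other genes (log2) in each IP library, with a line at the group mean. The share falls from 46.8% in lower genes that were enriched in HET to 21.6% in higher genes, and all 3 KO IP libraries lie below the 3 HET IP libraries. Not drawn are the shares over all genes enriched (38.3%) or depleted (21.9%) in HET, whatever their call.

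The start regions of the leading genes show how mixed the first bases are. The windows below run 5' to 3' on the transcribed strand, 20 bases before the annotated start and 10 from it, with the first transcribed base in capitals, from RefSeq on GRCm38.p6. The first 6 have the most negative genotype differences among genes of the core set that had a mean of at least 50 in some group and a single annotated start. Predicted or numbered gene models were left out.
Ccdc60 (chr5:116288976-116289005, minus strand): gtgccctacttggcagttttAagccccaag
Ndufv2 (chr17:66101550-66101579, minus strand): tgagcgcgcgcgcgccgtgcGtcctgggcg
Cylc1 (chrX:111110398-111110427, plus strand): tcaacattgttagtttgaacAtacaaatgc
Sf3b3 (chr8:110846794-110846823, minus strand): gggctagatacctttttcccGtcgcgcggc
Med6 (chr12:81594999-81595028, minus strand): cttccgtcgcggtagtcatcGcctttactg
Bcl2l13 (chr6:120836210-120836239, plus strand): ccagggtgacctcaccgtccAacatggcgg
An adenosine stands first in Ccdc60, Cylc1 and Bcl2l13, and a guanosine in Ndufv2, Sf3b3 and Med6. The next 6 have the most positive genotype differences under the same limits.
Ski (chr4:155222526-155222555, minus strand): gggagcgggagcggccggggGagcccgatc
Tbc1d10b (chr7:127208459-127208488, minus strand): cccggcgcgcgccgagccgcGcccttcgcc
Inha (chr1:75507589-75507618, plus strand): aggcagctctgggtatgaatGgcagcccca
Acbd6 (chr1:155558100-155558129, plus strand): agctacactaatggaccgccTccttccctt
Stard9 (chr2:120629101-120629130, plus strand): gcgcgtgggacgggcggggcAgtctgtggc
Slc36a1 (chr11:55204320-55204349, plus strand): ggctagggagccagcatcacGtgacagggc
Stard9 is the single gene of these 6 with an adenosine start. The last 5 were chosen after their values were seen, from adenosine-start genes of the core set that were enriched in HET and lower in KO. They were picked by their high mean in the HET IP.
Clpb (chr7:101663731-101663760, plus strand): gtcttcgaacgcgccgcggcAgccatgttg
Lrrc51 (chr7:101921216-101921245, minus strand): ggagttgcaagaaggttctcAgagtacgat
Ap2s1 (chr7:16738424-16738453, plus strand): gggttctcctgccggaagtcAgttctagcc
Xrra1 (chr7:99859198-99859227, plus strand): gctcttcggaggcggaaacgAcgccgaagg
Kpna2 (chr11:106999516-106999545, minus strand): gaacgcgcagcttaggctcaAatcagccaa

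These 5 adenosine-start transcripts were picked for being enriched in HET, lower in KO and high in the HET IP. Their values illustrate those calls at high read counts and are no further test of them. Clpb, which encodes a mitochondrial protein disaggregase, had HET scaled counts of 15118, 13544 and 13890.3 before precipitation and 19141, 23799 and 18115 after it. In KO they were 9654, 11767 and 11059 before and 4759.7, 4662 and 4111 after. Every HET IP library lay above every HET input, and every KO IP library lay below every KO input. The genotype difference was -1.77 ± 0.18 (SE, n = 3 per group, limma adjusted p = 8.14e-05), from an enrichment of 0.51 in HET to -1.26 in KO. Lrrc51 went from IP values of 5073, 7135 and 6620.0 in HET to 1860.5, 2026 and 1701 in KO, over inputs of 4084 ± 203 (SD, n = 3) and 3334 ± 174, a genotype difference of -1.45 ± 0.18 (limma adjusted p = 0.000377). Ap2s1, the sigma subunit of the AP2 clathrin adaptor, had inputs of 1169 ± 44.5 in HET and 1093 ± 55.8 in KO that hardly moved, and IP values of 2075 ± 204 and 811 ± 82.8. Its enrichment turned from 0.82 in HET to -0.43 in KO (difference -1.26 ± 0.17, limma adjusted p = 0.000671). Xrra1 turned from 0.64 to -0.39 (difference -1.03 ± 0.19, limma adjusted p = 0.00492). Kpna2, an importin alpha, lost its enrichment without becoming depleted, with IP values of 3422, 3628 and 3478 in HET and 1958, 1967 and 1952 in KO over inputs of 2263 ± 97.9 and 2121 ± 132. Its enrichment was 0.63 in HET and -0.11 in KO, a difference of -0.75 ± 0.15 (limma adjusted p = 0.00615).

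The naming rule took genes of the core set with a mean of at least 50 in some group and left out predicted or numbered gene models. By this rule the 12 most negative genotype differences were those of Ccdc60, Ndufv2, Cylc1, Sf3b3, Med6, Bcl2l13, Ccdc150, Rnf133, Lyrm9, Dohh, Chmp1a and Nme5, from -2.87 to -2.34. Rnf133 encodes a ubiquitin ligase expressed in testis. Its scaled counts were 442, 293 and 396 in HET IP, over inputs of 150.2, 152 and 174, and 77.8, 66.1 and 36.0 in KO IP, over inputs of 130.3, 128 and 133. All HET IP values lie above the inputs and all KO IP values below them, with a genotype difference of -2.40 ± 0.34 (limma adjusted p = 0.000823). Ccdc60, a coiled-coil protein gene, had inputs of 75.1, 73.0 and 92.4 in HET and 67.3, 66.7 and 71.2 in KO. Its IP values were 56.7, 60.1 and 53.6 in HET against 5.99, 11 and 2.70 in KO, the last group resting on 12 reads in all. HET IP was close to input and KO IP far below it, a difference of -2.87 ± 0.47 (limma adjusted p = 0.00211). Med6, a subunit of the Mediator complex, had IP values of 41.8, 42.4 and 44.7 in HET and 5.99, 11 and 11.7 in KO, although its inputs were, if anything, higher in KO (39.0, 68.2 and 54.0) than in HET (34.0, 41.6 and 35.8). Dohh, whose enzyme completes the hypusine residue of translation factor eIF5A, was depleted in both genotypes, with enrichment of -1.41 in HET and -3.78 in KO (difference -2.37 ± 0.38, limma adjusted p = 0.00185). Chmp1a, an ESCRT-III subunit, and Bcl2l13, a BCL2-like protein of the mitochondrial outer membrane, were neither enriched nor depleted in HET (-0.44 and -0.30) and depleted in KO (-2.79 and -2.87). Of these 12 genes, Cylc1 and Rnf133 alone were enriched in HET.

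**Figure D3:**
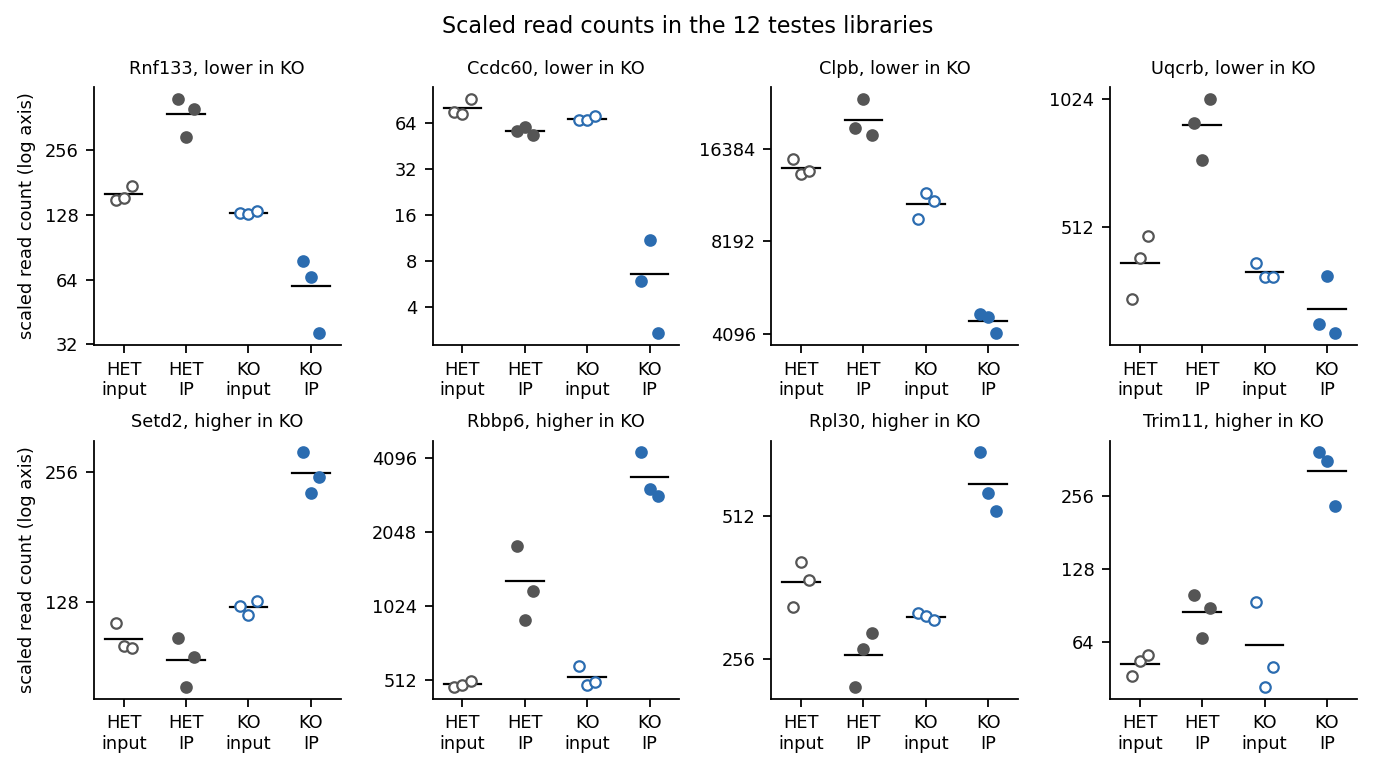
Scaled read counts (log axis) of 8 genes in the 12 libraries, with open circles for inputs, filled circles for IP, grey for HET, blue for KO and a line at each group mean. In the upper row (Rnf133, Ccdc60, Clpb, Uqcrb) the KO IP values lie below all HET IP values, in the lower row (Setd2, Rbbp6, Rpl30, Trim11) above them.

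By the same naming rule, the 12 most positive genotype differences were those of Ski, Tbc1d10b, Inha, Mir7225, Acbd6, Stard9, Trim11, Arhgap23, Slc36a1, Ppp2cb, Ppp1r16a and Slc45a4, from 2.24 to 1.67. Ski, a transcriptional corepressor of TGF-beta signalling, had inputs of 45.1, 51.7 and 47.8 in HET and 57.6, 34.5 and 57.3 in KO. Its IP values were 25.4, 13.7 and 39.3 in HET and 83.8, 112 and 176 in KO, so the IP groups do not overlap. It was depleted in HET (-0.97) and enriched in KO (1.27), a difference of 2.24 ± 0.49 (limma adjusted p = 0.0111). Trim11, a ubiquitin ligase gene, had IP values of 99.9, 66.6 and 88.4 in HET and 386, 355 and 232 in KO, over inputs of 52.3 ± 5.09 and 62.2 ± 27.8, a difference of 1.74 ± 0.39 (limma adjusted p = 0.013). Ppp1r16a, a regulatory subunit of protein phosphatase 1, went from 286, 142 and 189 in HET IP to 816, 502 and 483 in KO IP, while its inputs stayed at 163 ± 8.33 and 147 ± 18.3. Its difference was 1.71 ± 0.33 (limma adjusted p = 0.00615). Acbd6, an acyl-CoA-binding protein gene, gained no enrichment over input in KO (0.09) but was depleted in HET (-1.78). Slc36a1, a lysosomal amino acid transporter, went from 0.59 in HET to 2.31 in KO. The leading higher genes were mostly scarce in input, with 10 of the 12 below a mean of 100 in both input groups.

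List counts here and below stand beside 6.25% lower and 3.72% higher of all tested genes. They were not adjusted for level, and called genes had higher median inputs (217 lower, 196 higher) than genes not called (48.9). The mitochondrial electron transport chain held many genes with lower enrichment in KO. Complex I, which passes electrons from NADH to ubiquinone, had 9 of 31 tested nuclear-encoded subunits called lower and 0 higher (edgeR 10 and 0, DESeq2 12 and 0, unadjusted p below 0.05 16 and 0), with a median genotype difference of -0.69 and 29 of 31 below 0. Leaving out single libraries gave 6 to 12, fewest without HET input replicate 1 or 3. Ndufv2, a core subunit, had IP values of 73.1, 77.7 and 62.5 in HET and 12, 2.20 and 16.2 in KO over similar inputs (146 ± 12.7 and 133 ± 15.2). Ndufa6 fell from 318, 406 and 435 in HET IP to 147, 165 and 152 in KO IP (difference -1.15 ± 0.20, limma adjusted p = 0.00277), and Ndufs8 from 106, 110.4 and 115 to 52.4, 28.6 and 59.5 (difference -1.56 ± 0.33, limma adjusted p = 0.00879). Their KO inputs lay on different sides of HET, at 742 ± 33.0 against 825 ± 42.1 for Ndufa6 and 128 ± 5.09 against 106 ± 7.57 for Ndufs8. Complex III, which passes electrons on to cytochrome c, had 3 of 8 lower, Uqcrb, Uqcr11 and Uqcrq, and 0 higher in limma and edgeR, with 4 and 0 in DESeq2 and at an unadjusted p below 0.05. Uqcrb had inputs of 345, 431 and 486 in HET and 420.0, 390.0 and 389 in KO, and IP values of 903, 738 and 1028 in HET and 301, 392 and 287 in KO. It was enriched in HET (1.08) and at input level in KO (-0.30), a difference of -1.38 ± 0.24 (limma adjusted p = 0.00287). Complex IV had 3 of 10 lower and 0 higher (1 higher in edgeR, DESeq2 and at an unadjusted p below 0.05) with a median of -0.63, 1 lower without HET input replicate 1 or KO input replicate 1, and 5 without HET IP replicate 2. It had 1 higher without HET IP replicate 3 or KO IP replicate 1.

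Mitochondrial ribosomal proteins, which translate the mitochondrial genome, had 9 of 64 lower, 0 higher (2 higher at an unadjusted p below 0.05, 0 in edgeR and DESeq2) and a median of -0.51. That count fell to 3, 5 and 4 without HET input replicates 1, 2 and 3 and to 4 without each of the KO inputs, and rose to 15 without HET IP replicate 1. Mrpl52 had IP values of 713, 888 and 944 in HET and 323, 328 and 361 in KO over inputs of 1075 ± 141 and 1039.8 ± 61.2 (difference -1.28 ± 0.20, limma adjusted p = 0.00154). ATP synthase had 2 of 12 lower (16.7%), 1 higher (8.33%) and a median of 0.00, with 1 to 3 lower and 0 to 2 higher when single libraries were left out. The TCA cycle had 1 of 22 lower (4.55%, below the share of all tested genes) with a median of -0.16, and 0 lower without HET input replicates 1 or 3 or any 1 KO input. The ATP synthase subunit gene Atp5j2 was one of the lower ones, from 213, 439.5 and 376 in HET IP to 74.8, 61.7 and 119.8 in KO IP at level inputs (346 ± 24.5 and 339.9 ± 18.5). The 4 mitochondrially encoded genes tested had no call in limma or edgeR, 1 higher in DESeq2 and at an unadjusted p below 0.05, and a median of 0.48.

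Cytosolic protein homeostasis genes were lower in part, beside 6.25% lower and 3.72% higher of all tested genes. The 20S proteasome core, the barrel that degrades proteins, had 3 of 15 lower, 0 higher (1 higher in edgeR, DESeq2 and at an unadjusted p below 0.05) and a median of -0.56. Its lower count was 2 without HET IP replicate 3 or any 1 input library. It was 4 without HET IP replicates 1 or 2 and 5 without KO IP replicate 2. The proteasome regulatory particle had 1 lower and 1 higher of 16 (6.25% each), so its lower share was that of all tested genes. Both regulatory particle counts were 0 without HET input replicates 2 or 3 or KO input replicates 2 or 3, and the higher count also without HET IP replicate 3, KO IP replicates 2 or 3, HET input replicate 1 or KO input replicate 1. Psmb2, a catalytic core subunit, had IP values of 172, 303 and 214 in HET and 92.8, 108 and 137 in KO over inputs of 299.6 ± 24.7 and 344 ± 30.1 (difference -1.20 ± 0.28, limma adjusted p = 0.016). Among chaperones, 6 of 26 were lower and 0 higher (0 in edgeR, 2 in DESeq2 and 3 at an unadjusted p below 0.05). Cct3, a subunit of the chaperonin that folds tubulin and actin, went from 1520.1, 1851 and 1669.7 in HET IP to 589.7, 628 and 528 in KO IP over inputs of 1400.2 ± 35.1 and 1337 ± 46.4. Its difference was -1.46 ± 0.17 (limma adjusted p = 0.000134). Cct5, from the same complex, was depleted in both genotypes, at -1.94 in HET and -3.15 in KO. Hsp90aa1 had IP values of 11537 ± 1137 in HET and 6052 ± 520.5 in KO and turned from 0.37 to -0.72.

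Calls among genes of the translation apparatus went in both directions. Of 76 cytoplasmic ribosomal protein genes, 7 were lower (9.21%) and 5 higher (6.58%), beside 6.25% and 3.72% of all tested genes (4 lower without HET IP replicate 3 or any input but KO replicate 1, and 3 higher without HET input replicate 3 or KO input replicate 2), with a median of -0.03 that changes sign with TMM scaling (0.02). As a group they were depleted in both genotypes, at medians of -1.22 in HET and -1.32 in KO. Rplp0, a stalk protein, fell from 528, 662 and 717 in HET IP to 157, 183 and 234 in KO IP (difference -1.55 ± 0.22, limma adjusted p = 0.000761). Rpl30 did the reverse, with 224, 268 and 290.4 in HET IP and 699, 573 and 524 in KO IP over inputs of 372 ± 40.8 and 315 ± 5.36 (difference 1.43 ± 0.21, limma adjusted p = 0.00135). Rpl37a rose from 3393 ± 433 to 6246 ± 561 in the IP at inputs of 10290.2 ± 869 and 9874 ± 502, and stayed depleted in both genotypes. Reads of ribosomal protein genes and their many processed copies may be shared, and how the counting treated them is not given in the sources used here. The start windows of Rpl37a and of 2 other abundant ribosomal protein genes that were not called, Rpl41 (-0.07) and Rps28 (0.36), show first bases other than adenosine.
Rpl37a (chr1:72711240-72711269, plus strand): gtcacttccgctcgccggtcTaaaaccgcg
Rpl41 (chr10:128549159-128549188, minus strand): gacgacacacgggccggctcGgaagtgacg
Rps28 (chr17:33824553-33824582, minus strand): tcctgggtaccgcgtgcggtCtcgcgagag
Among 36 translation factors 3 were lower (8.33%) and 5 higher (13.9%), with 5 and 8 without HET IP replicate 1, and 3 higher without HET IP replicate 3, HET input replicates 1 or 3 or KO input replicates 2 or 3. Eif4a3, a helicase of the exon junction complex, and Eif2s2, a subunit of initiation factor eIF2, were lower (limma adjusted p = 0.00494 and 0.00434), with IP means of 122 ± 16.2 and 2115 ± 273 in HET and 56.6 ± 6.86 and 1049.8 ± 169 in KO. Eif3b, a subunit of initiation factor eIF3, was higher, from 163, 172 and 118 in HET IP to 362, 322 and 280.2 in KO IP (difference 1.10 ± 0.23, limma adjusted p = 0.00926). Kars, the lysyl-tRNA synthetase, was enriched in both genotypes, at 0.90 in HET and 1.97 in KO.

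Of the gene lists used here, round spermatid markers and acrosome genes had the most negative medians. Acrosome and egg-binding genes had 9 of 23 lower, 1 higher and a median of -0.88, and round spermatid markers 5 of 12 lower, 0 higher (0 in edgeR, in DESeq2 and at an unadjusted p below 0.05) and a median of -0.95. Both lists share Acr, Acrv1, Spaca1 and Zpbp. Their counts depended on single libraries: without HET IP replicate 3 or any 1 input library the acrosome list had 2 to 4 lower and the round spermatid list 2 or 3, in both cases 2 without KO input replicate 2, and the acrosome list had 4 without KO IP replicate 1. Elongating spermatid markers had 2 of 9 lower with a median of -0.45. That count was 1 without HET IP replicate 2, KO IP replicates 2 or 3 or any 1 input library, and 3 without HET IP replicate 1. Spermatid chromatin condensation genes had 2 of 10 lower with a median of -0.14. Zpbp2, a zona pellucida-binding protein of the acrosome, kept its call throughout. Its IP values were 3204, 4724 and 4111 in HET and 1099, 1392 and 1324 in KO over inputs of 3009.7 ± 24.9 and 2508 ± 96.7, and enrichment turned from 0.40 to -0.99 (difference -1.38 ± 0.20, limma adjusted p = 0.000862). Flagellum and sheath genes had 9 of 40 lower, 1 higher and a median of -0.56, with 5 lower without HET input replicate 1. Odf3, an outer dense fibre gene, fell from 559, 866 and 578 in HET IP to 153, 121 and 122 in KO IP (difference -1.96 ± 0.24, limma adjusted p = 0.000291). Tekt2, a tektin of axonemal microtubules, turned from 0.50 to -0.62, and Meig1, needed for assembly of the sperm tail, from -0.16 to -1.30. Glycolysis genes of sperm had 4 of 16 lower, among them the spermatid glyceraldehyde-3-phosphate dehydrogenase Gapdhs (-1.38 ± 0.27, limma adjusted p = 0.0063) and the hexokinase Hk1. Hk1 had IP values of 6368, 7575 and 5647 in HET and 2627, 2488 and 2364 in KO, and inputs that were themselves lower in KO (3685, 3390.2 and 3458 against 2457, 2645 and 2544). Brdt, a bromodomain protein of spermatid chromatin, and H3f3b, which encodes histone H3.3, were lower by -1.38 ± 0.21 and -1.31 ± 0.20 (limma adjusted p = 0.00138 and 0.00158).

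Summed input counts did not overlap between HET and KO for some, not all, of the cell type marker lists. Summed scaled counts of the 14 round spermatid markers were 5187 to 5693 in HET inputs and 4059.6 to 4571 in KO inputs, and those of the 12 elongating spermatid markers 18519.9 to 20713 and 16035 to 16634. The 16 spermatogonial markers present summed to 456 to 476 in HET inputs and 581 to 611 in KO inputs, and the 19 Sertoli cell markers to 1851 to 1984 and 2076 to 2305. None of these pairs of ranges overlap, no marker was at 0 in all libraries, and the part of these input differences in the genotype difference of enrichment was not tested. Input sums did overlap for meiotic recombination and synapsis genes (3336 to 3905 in HET, 3526 to 3796 in KO). They also overlapped for piRNA pathway genes (7448 to 7850 and 7504 to 7669) and Leydig cell markers (436 to 499 and 455 to 540). The 13 macrophage markers summed to 1716 to 1818 in HET inputs and 1322 to 1569 in KO inputs, without overlap. The sums of peritubular and vascular markers, 115 to 124 and 147 to 159.7, did not overlap either. Such sums weigh the most abundant members most and need not hold for each marker, and their differences between genotypes were not tested. Leydig cell markers (8 tested) and peritubular and vascular markers (4 tested) had no call in limma, edgeR or DESeq2 and none at an unadjusted p below 0.05, and macrophage markers had 1 lower of 5. That one was Tyrobp, an adaptor of myeloid receptors (difference -3.00 ± 0.81, limma adjusted p = 0.0289), whose KO IP values rest on 7 reads. Its inputs, 13.7 ± 4.55 in HET and 14.1 ± 3.44 in KO, did not follow the lower summed macrophage input. Its call was lost without HET IP replicates 2 or 3, HET input replicates 1 or 2 or any 1 KO input. The 6 blood cell markers present were below the filter, with sums of 2.20 to 12.7 in any library. Sertoli cell markers had 3 of 12 higher and a median of 0.37. Inha, the inhibin alpha subunit made by Sertoli cells, was the single one of these to keep its call without each library, and the higher count was 1 without HET IP replicate 3, KO IP replicate 1, HET input replicates 1 or 3 or KO input replicates 2 or 3.

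**Figure D4:**
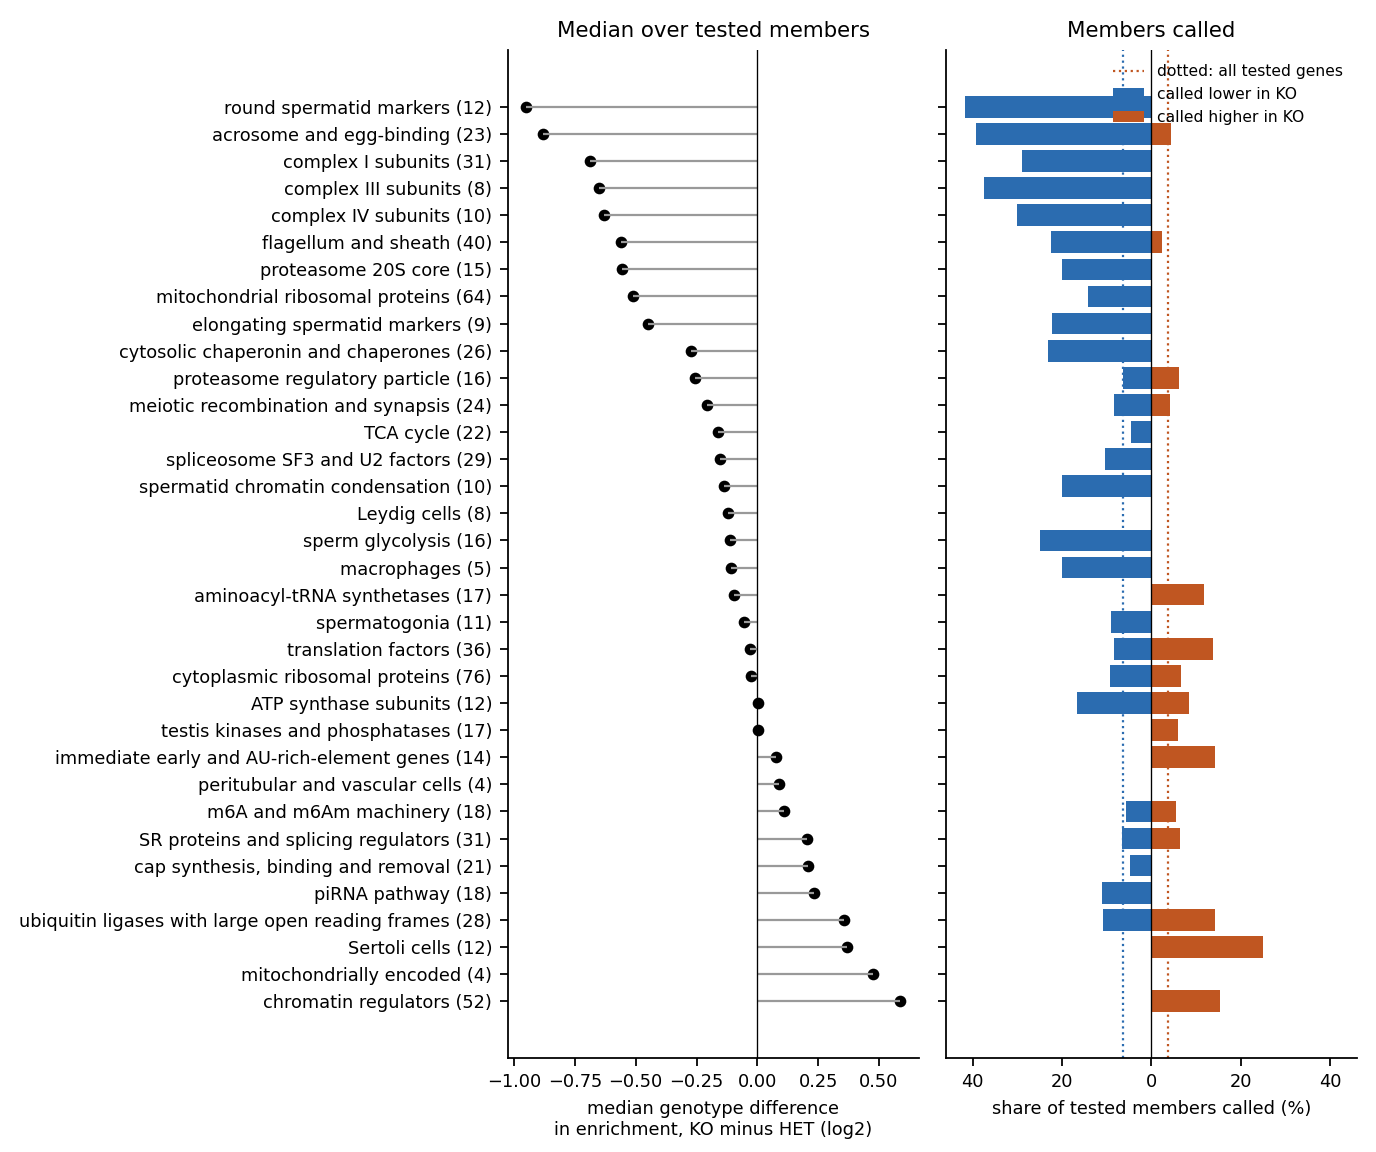
Left, median genotype difference in enrichment (KO minus HET, log2) over the tested members of each gene group, with the number tested in parentheses; right, share of tested members (%) called lower (blue, to the left) or higher (orange, to the right) in KO, with dotted lines at 6.25% and 3.72%, the shares of all tested genes. Round spermatid, acrosome and respiratory chain groups lie at one end and chromatin regulators, with a median of 0.59, at the other.

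Chromatin regulators had the opposite pattern to spermatid genes. Of 52 tested, 8 were higher (15.4%) and 0 lower (edgeR 10 and 0, DESeq2 11 and 0, unadjusted p below 0.05 21 and 1), the median was 0.59 and 43 lay above 0. Their median enrichment was 0.03 in HET and 0.46 in KO. Leaving out single libraries gave 2 to 10 higher, with 4, 2, 4, 3 and 4 without HET input replicates 1 and 3 and KO input replicates 1, 2 and 3. Setd2, an enzyme that methylates histone H3 in transcribed gene bodies, had inputs of 115, 102 and 100.4 in HET and 126, 120.0 and 129 in KO. Its IP values were 106, 81.6 and 95.6 in HET and 284, 229 and 249.6 in KO, a difference of 1.18 ± 0.23 (limma adjusted p = 0.00671). Arid1a, a subunit of the SWI/SNF remodelling complex, went from 137, 119 and 142 in HET IP to 305, 269 and 307 in KO IP over inputs of 92.0 ± 14.2 and 96.9 ± 8.17 (difference 1.06 ± 0.24, limma adjusted p = 0.0128). For both genes the KO IP values lie above all other libraries of that gene.

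The list of ubiquitin ligases with large open reading frames was split, with 3 of 28 lower (10.7%) and 4 higher (14.3%), beside 6.25% and 3.72% of all tested genes. Without any 1 input library there were 1 lower and 1 or 2 higher. Without HET IP replicate 2 the lower count was 1, and without HET IP replicate 3 the higher count was 2. Rbbp6 had IP values of 1799, 897 and 1169 in HET and 4318, 3048 and 2859 in KO over inputs of 489 ± 13.1 and 523 ± 50.8, so it was enriched in both genotypes and more so in KO (difference 1.35 ± 0.29, limma adjusted p = 0.0102). Ubr1, of the N-degron pathway, was lower, from 29.8, 44.4 and 38.4 to 13.5, 6.61 and 11.7 (difference -1.96 ± 0.41, limma adjusted p = 0.0083). SR proteins and splicing regulators had 2 lower and 2 higher of 31, 6.45% each and for lower calls near the share of all tested genes. Counts were 2 and 4 in edgeR, 3 and 7 in DESeq2, and 1 to 3 lower and 1 to 4 higher when single libraries were left out. Sfswap, a splicing regulator, was higher, from an enrichment of 1.33 in HET to 2.73 in KO. Zfp36l1, which promotes decay of mRNAs with AU-rich elements, was higher at 1.37 ± 0.33 (limma adjusted p = 0.0166) while its inputs were lower in KO, at 48.1 ± 7.44 against 78.6 ± 1.16.

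Among 18 genes that write, erase or read m6A and m6Am, 1 was lower and 1 higher (5.56% each, beside 6.25% and 3.72% of all tested genes, with 2 higher in edgeR and DESeq2). The higher one was Ythdc1, a nuclear reader of m6A, with IP values of 436, 249 and 327 in HET and 753, 649.7 and 563 in KO (difference 0.94 ± 0.28, limma adjusted p = 0.0414). Its call was lost in 9 of the 12 fits that left out 1 library, at adjusted p up to 0.116. The lower one was Mettl16, a methyltransferase that acts on U6 small nuclear RNA, with IP values of 41.8, 49.0 and 60.8 in HET and 5.99, 17.6 and 23.4 in KO (difference -1.98 ± 0.51, limma adjusted p = 0.0223). Its call was lost, at adjusted p from 0.0537 to 0.0618, without HET IP replicate 3, HET input replicates 1 or 3, or KO input replicates 2 or 3. Among 21 genes of cap synthesis, binding and removal 1 was lower (4.76%, below the 6.25% of all tested genes) and 0 higher (0 in edgeR, 2 in DESeq2, 4 at an unadjusted p below 0.05). That one was Ncbp2, the cap-binding subunit of the nuclear cap-binding complex, with IP values of 469.9, 722 and 552 in HET and 192, 279.7 and 277 in KO over inputs of 735 ± 62.1 and 705 ± 53.7 (difference -1.16 ± 0.25, limma adjusted p = 0.00988).

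By gene class, 6.47% of 10266 protein-coding genes were lower and 3.99% higher. Genes annotated as miRNA went the other way, with 2 of 107 lower and 18 higher (16.8%), a median of 0.54 and 81 of 107 above 0. The reads of such a locus need not come from the mature miRNA: 8 of the 20 called loci overlap another annotated gene, and of the 5 higher loci whose overlapping gene was tested, 1 had a called host, Ddhd1 with Mir5131, and 5 had a host above 0. Mir7225, inside Pde4dip, had inputs of 41.1, 42.5 and 42.2 in HET and 37.2, 32.2 and 45.8 in KO and IP values of 44.8, 30.0 and 42.9 against 209.5, 123 and 102, while Pde4dip itself was at 0.50 without a call. Several of the other miRNA entries are predicted models with near-identical values, and 114 tested features had an exact copy of their values in another feature, 11 of them called. The share of lower genes ran from 4.40% on chromosome 19 to 8.81% on chromosome 14 among autosomes, and was 4.95% on X. None of 65 tested genes on Y was called in limma (3 lower and 10 higher at an unadjusted p below 0.05, 1 and 1 in edgeR, 2 and 1 in DESeq2). The median genomic span was 17540 bp for lower, 25218 bp for higher and 20594 bp for genes not called.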

How the data were processed

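For the testes assay the authors deposited a single table of signal values, 1 column per library, which per the values are read counts scaled library by library. Of the tools in the submitters' processing notes (STAR, Salmon 0.12.0, DESeq, DESeq2 1.25.10 and R 3.6.2) none is tied to this table. Build, annotation, strand use and gene filter: not given in the sources used here. Hence reads of overlapping or antisense genes may be shared. All 100% of values were whole multiples of 1 read within a tolerance of 0.01, and reads were recovered from these steps. The deposited log2 fold and adjusted p-value columns were not used.

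Genes with a value of at least 10 in at least 3 libraries were fitted as log2(value + 1), pseudocount 1, with limma 3.58.1 (trended empirical Bayes, R 4.3.3) in 1 model of 4 group means over 12 libraries, with Benjamini-Hochberg adjustment over 12387 genes at 0.05. The scale understates changes of low genes. Count tables had been assumed in the design, and since the table holds scaled values, edgeR 4.0.16 and DESeq2 1.42.0 on recovered reads served as alternatives among 24 settings, which included other scalings, pseudocounts, filters, library weights and leaving out each library. The fit was tested on simulated data. RefSeq start windows (GRCm38.p6) were matched by symbol: 6966 tested genes had 1 start, 1859 several and 3562 no entry.

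Named genes were the 12 most negative and 12 most positive that kept their call in every leave-one-out fit and in edgeR with a group mean of at least 50, predicted or numbered gene models left out, up to 3 called members with the smallest p of each of 35 lists, and the m6A machinery. Of 125 such genes 100 were called, and 30 of these lost the call without at least 1 library; most of those are given by count alone. The members of this comparison and the lists were chosen with earlier results of these data known. Replicates were numbered in accession order and are not paired.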

Additional observations from a re-analysis of the deposited data

Results flagged for a closer look

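In 12 named genes, IP enrichment was called in opposite directions in the 2 genotypes, and the interaction test in limma called the difference as well. Enriched in HET and depleted in KO were Cylc1 (genotype difference -2.77), Rnf133 (-2.40), Clpb (-1.77), Psma4 (-1.54), Lrrc51 (-1.45), Zpbp2 (-1.38), Ap2s1 (-1.26), Tekt2 (-1.12), Hsp90aa1 (-1.09) and Xrra1 (-1.03). Depleted in HET and enriched in KO were Rpl30 (1.43) and Ski (2.24). Over all tested genes the interaction test called 774 genes lower and 461 higher in KO, of which 77 and 11 changed sides in this way.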

How the results depend on the processing

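The counts of called genes moved with the estimate of the spread more than with scaling. With library quality weights 1501 genes were lower and 1103 higher (2604 in all), and 3221 were enriched and 3250 depleted in HET. Limma without a mean-variance trend gave 498 lower and 244 higher (742 in all), no filter on low values 793 in all with 257 higher, and DESeq2 744 higher. With each library left out in turn the calls ran from 546 to 1729 in all, 403 to 1012 lower and 143 to 717 higher, the enriched genes in HET from 1276 to 1997 and the depleted from 1376 to 2178, and the adenosine share from 14.8 to 24.8% of higher and from 34.2 to 41.0% of lower genes. The causes were not tested. TMM scaling gave 695 lower and 547 higher, and quantile normalisation 753 and 502. Of 2972 values of named genes under the 24 settings, 2712 kept direction and side of the threshold, 245 lost and 15 gained the call, and 0 reversed. Depth limits the lowest KO IP values, which rest on a few reads. No paired analysis was possible because the labels give these libraries no replicate numbers.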

Other observations

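Several of the 77 genes that turned from enriched in HET to depleted in KO belong to no list used above and were chosen here after their values were seen. Nusap1, a spindle microtubule protein, went from 1.35 to -0.86, Pde1a, a calmodulin-dependent phosphodiesterase, from 1.26 to -0.70, and Ift81, a tubulin-binding subunit of intraflagellar transport, from 1.05 to -0.43. The mitotic regulators Ccnb1 and Cdc27 went from 0.59 to -0.51 and from 0.76 to -0.41. Adam2, a sperm surface protein needed for fertilisation, went from 0.72 to -0.47. The genotype differences were -2.20, -1.96, -1.48, -1.10, -1.17 and -1.20, in the order given, with limma adjusted p of 0.0044, 0.00297, 0.00117, 0.00142, 0.000761 and 0.00111.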
